A study of Rattus norvegicus with 6 samples.

Results

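Transcription factors that specify the neural crest or drive the change from epithelial to mesenchymal cells were followed in 6 rat cultures. The set has 10 genes, Foxd3, Tfap2a, Tfap2b, Pax3, Snai1, Twist1, Twist2, Zeb1, Prrx1 and Prrx2. Each was taken from the deposited value table by its gene symbol, and all 10 had 1 probe set, out of 18166 genes measured. Newborn wild-type Sprague-Dawley rats gave all cultures: 3 independent isolates of SKPs, skin-derived precursors of the back, and 3 of NSCPs, Schwann cell precursors of the sciatic nerve, with 1 array per isolate. SKPs grew as spheres with FGF2 at 40 ng/ml and EGF at 20 ng/ml, and NSCPs grew on laminin and poly-D-lysine with neuregulin-1β at 25 ng/ml and forskolin at 5 μM. Tissue, medium and growth form thus differ at once between the groups and cannot be told apart, and the sources used here do not give the number of pups behind an isolate.

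Neural crest cells arise at the border of the neural plate, leave it by an epithelial to mesenchymal transition, and give rise to Schwann cells, melanocytes, peripheral neurons and facial mesenchyme. AP-2 proteins (Tfap2a, Tfap2b) and PAX3 act at the border, FOXD3 marks early crest and Schwann cell precursors, and SNAIL, TWIST and ZEB proteins bind E-boxes and repress epithelial genes during the transition. PRRX proteins are homeodomain factors of limb, facial and dermal mesenchyme.

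Of the 10 factors 2 were higher in NSCPs (Foxd3 and Tfap2b), 6 were lower (Snai1, Twist1, Twist2, Zeb1, Prrx1 and Prrx2), and Tfap2a and Pax3 did not pass. A gene is called here when its limma p adjusted over all 18166 genes was under 0.05, and 43.7% of all genes were, 25.2% higher and 18.6% lower in NSCPs. The arrays of the groups did not overlap for 8 of the 10, against 56.6% of all genes (34.4% higher and 22.1% lower in NSCPs). A large part of all genes thus differed, and the counts for the factors and for each list below have to be read against these shares. The median difference of the 10, NSCPs minus SKPs on the log2 scale, was -0.98, and that of all genes was 0.14. By role, the 4 crest factors had 2 higher and 0 lower, the 4 transition factors 0 higher and 4 lower, and the 2 PRRX genes were lower. At an unadjusted limma p under 0.05 the same 8 factors passed, as did at least 43.7% of all genes, since the adjustment never lowers p.

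Values are log2 expression, and a mean not above 5.50, the 95th percentile of 1344 olfactory and vomeronasal receptor genes, is called within background. Of the Schwann cell markers checked, 8 of 8 measured were higher in NSCPs. Of the dermal fibroblast markers 9 of 9 were higher in SKPs, and 4 of those 9 lay above background in NSCPs. SKPs also carried leukocyte markers, 9 of 9 of them higher than in NSCPs. Their mean over 9 genes was 10.51, 9.50 and 9.89 in SKP replicates 1, 2 and 3, and 4.87 to 5.11 in NSCPs. In bulk RNA fewer cells of a type and less RNA per cell cannot be told apart. What part leukocytes in the SKP cultures have in the SKP levels below was not tested. Rescaling each array to the same median raised every difference by 0.20 and the share of calls higher in NSCPs from 57.5% to 75.1%, and calls of named genes that changed with it are given below.

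**Figure D1:**
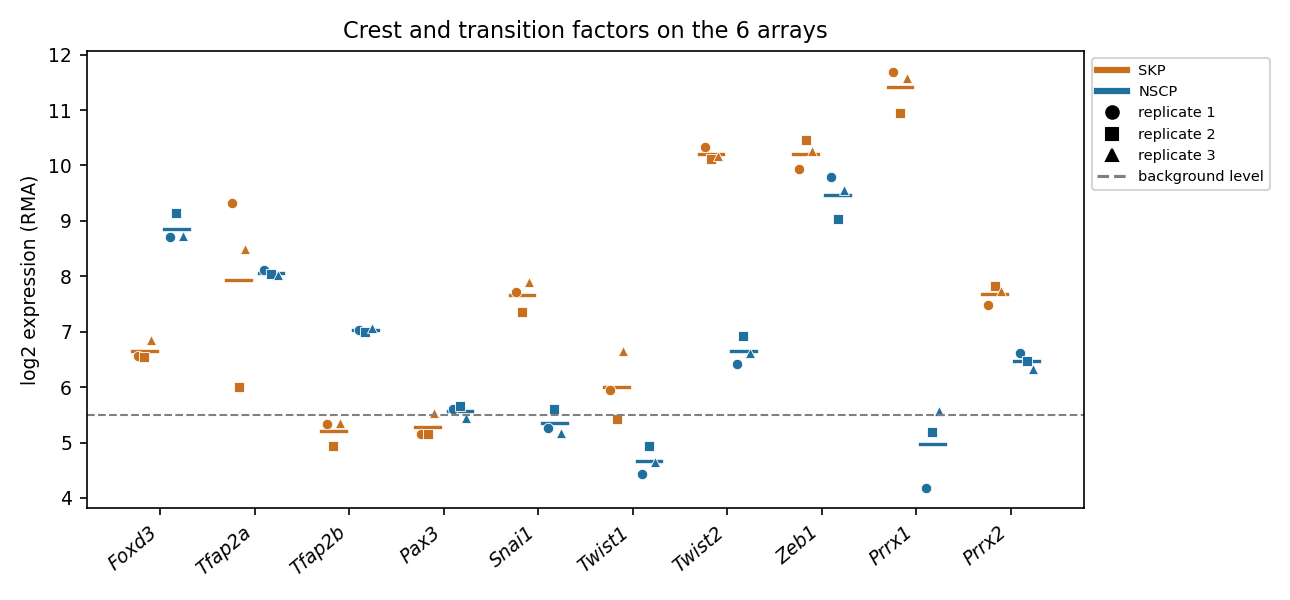
Log2 expression of the 10 factors (y axis, RMA scale) on each array, SKPs in orange and NSCPs in blue, with 1 symbol shape per replicate number, group means as bars and the background level of 5.50 dashed. Foxd3 and Tfap2b lie higher in NSCPs, 6 factors lie lower, and the Tfap2a values of SKPs spread from 6.004 to 9.32.

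Foxd3, which encodes a forkhead repressor of early crest and Schwann cell precursors, stood at 6.57, 6.54 and 6.85 in SKPs and at 8.72, 9.14 and 8.72 in NSCPs. All NSCP arrays lay above all SKP arrays. The difference was 2.21 (SE 0.16, adjusted p = 8.75e-06), a 4.62-fold excess in NSCPs, and SKPs lay above background at 6.65 ± 0.17 (SD, n = 3). Tfap2b, the AP-2β gene of the sympathetic and nephric lineages, read 5.33, 4.94 and 5.36 in SKPs against 7.03, 6.99 and 7.06 in NSCPs. SKPs were within background for this gene, so its 3.53-fold excess rests on a background level (difference 1.82, SE 0.14, adjusted p = 1.47e-05). The NSCP arrays agreed within 0.07.

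Pax3, a paired-box gene of the crest, of melanoblasts and of muscle progenitors, was at or near background in both cultures. It read 5.16, 5.15 and 5.54 in SKPs and 5.61, 5.66 and 5.45 in NSCPs, with 1 SKP array inside the NSCP range. NSCPs exceeded SKPs by 0.29 (95% interval -0.04 to 0.62), which missed the threshold (adjusted p = 0.14). With each array centred on its median the difference was 0.49 and passed (adjusted p = 0.017). Among the skeletal muscle markers, 2 of 9 lay above background in SKPs and 4 of 9 in NSCPs, and Myod1 was at 5.39 and 5.56.

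Tfap2a, which encodes AP-2α of the crest, epidermis and facial mesenchyme, was the factor with the widest spread. It read 9.32, 6.004 and 8.50 in SKPs, but 8.12, 8.05 and 8.03 in NSCPs. SKP replicate 2 lay below every NSCP array and SKP replicates 1 and 3 lay above them. The SKP range of 3.31 was reached by 9 genes of 18166, Tfap2a included (0.0495%), while the NSCP range was 0.09. NSCPs exceeded SKPs by 0.12, short of the threshold (adjusted p = 0.897), and the 95% interval of this value ran from -1.46 to 1.71. Without SKP replicate 2 it was -0.84, lower in NSCPs, with an adjusted p of 0.0174.

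SKP replicate 2 differed from SKP replicates 1 and 3 in other genes of the lists as well. Compared with the mean of SKP replicates 1 and 3, it was lower by at least 1 in 260 of 18166 genes and higher by at least 1 in 81. The same counts were not made for replicates 1 and 3, so these do not single out replicate 2. Among the listed genes the cadherin genes Cdh2 (-1.67) and Cdh1 (-1.27), the tight junction gene Ocln (-1.32), the BMP ligand gene Bmp2 (-1.69) and the leukocyte phosphatase gene Ptprc (-1.45) were lower in it by at least 1, as was the mesenchymal factor gene Osr2 (-1.19). The nuclear receptor gene Nr2f1 (1.02), the fibroblast protease gene Fap (1.11) and the neurofilament gene Nefm (1.48) were higher by at least 1. The other 9 factors differed by less than 1, with Twist1 at -0.87, Prrx1 at -0.69 and Zeb1 at 0.35. The leukocyte mean was also lowest in replicate 2, and the keratinocyte mean over 6 markers was 4.82, 4.88 and 4.86 in the SKP arrays, below background in each, with the basal keratin gene Krt14 at 5.69, 5.09 and 5.18 and the basal factor gene Tp63 at 5.05, 5.07 and 4.94. The part of cell composition in the Tfap2a spread was not tested.

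**Figure D2:**
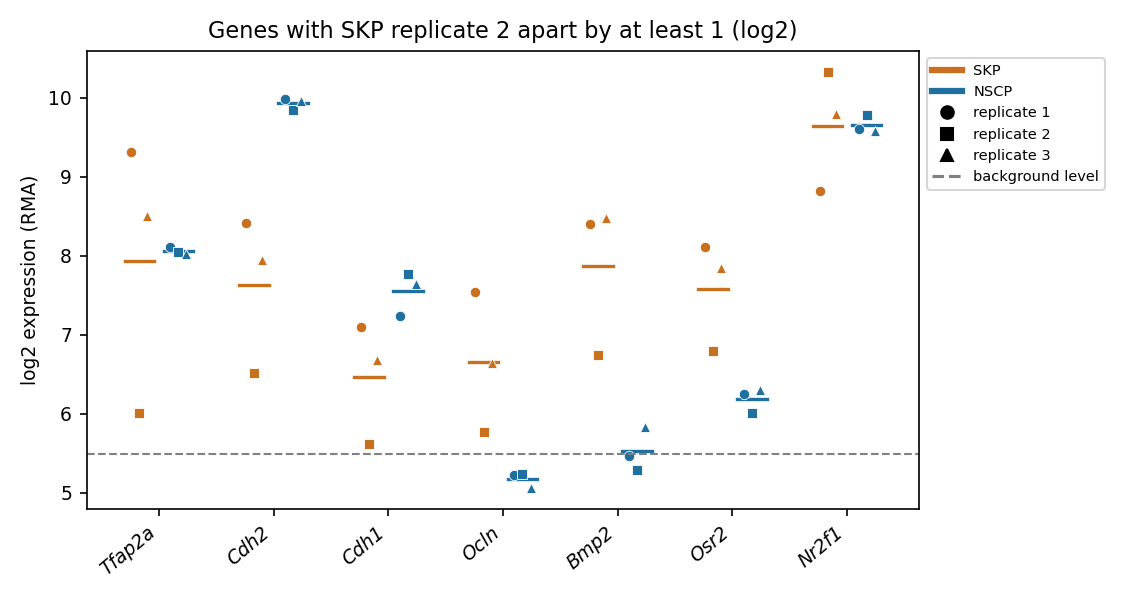
Log2 expression (y axis) of Tfap2a and of 6 genes from the non-marker lists in which SKP replicate 2 (orange square) differed from the mean of SKP replicates 1 and 3 by at least 1. In Tfap2a, Cdh2, Cdh1, Ocln, Bmp2 and Osr2 the square is the lowest SKP point, and in Nr2f1 the highest. NSCP points are blue, bars are group means and the dashed line is the background level.

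Of the crest genes around these factors, 11 of 21 measured were higher in NSCPs and 2 lower, against 25.2% and 18.6% of all genes, with a median difference of 0.49 against 0.14 for all genes. The calls of Sox8 (0.585) and Pax7 (0.49), both among the 11, were lost without SKP replicate 1, NSCP replicate 1 or NSCP replicate 2, with array weights and over all probe sets. That of Msx1 (-0.98), one of those lower, was lost without SKP replicate 3 (adjusted p = 0.0542) or NSCP replicate 1 (0.0508). Sox10, the SOXE factor of crest and glia, was 8.56-fold higher in NSCPs, and the retinoid receptor gene Rxrg was 15.1-fold higher with SKPs within background. Id3 (2.95) and Mycn (2.55) were higher too, and Zic1, a zinc finger gene of the plate border, was lower (-3.97) with NSCPs within background. Snai2, a crest relative of Snai1, was not analysed here.

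Among the cofactors of AP-2 proteins 2 of 4 were lower in NSCPs and 0 higher, against 18.6% and 25.2% of all genes. Cited2, which encodes a coactivator of AP-2 proteins, stood at 10.69 ± 0.49 in SKPs and 7.99 ± 0.16 in NSCPs (SD, n = 3 each), a difference of -2.70. Kctd15, which encodes an inhibitor of AP-2α, was lower by a difference of -0.53 (adjusted p = 0.0225), a call lost without SKP replicate 1 (0.0623), SKP replicate 3 (0.0843), NSCP replicate 1 (0.0713) or NSCP replicate 3 (0.0818), and with median centring (-0.32, 0.0783). Cited1 (-0.01, adjusted p = 0.977) and Cited4 (-0.03, adjusted p = 0.837) did not pass. At an unadjusted limma p under 0.05 the count of higher AP-2 cofactors was also 0. Of 9 textbook targets of PAX3, FOXD3, AP-2 and TWIST1, 3 were higher and 2 lower. The share called was 55.6%, against 43.7% of all genes. Mitf, the melanocyte master regulator that PAX3 activates and that leukocytes also express, was lower in NSCPs (-2.43), while Met (1.19), the melanogenic gene Dct (1.11, SKPs within background) and Erbb2 (1.06) were higher. Postn, a matrix gene activated by TWIST1, was lower (-0.83). The melanocyte markers were mixed, with 2 of 7 higher, 2 lower and 3 not called, so 57.1% were called. Tyrp1 (1.40, adjusted p = 1.55e-04, SKPs within background) and Dct were higher, Mlana (-1.22, adjusted p = 0.00304, NSCPs within background) and Mitf were lower, and Tyr, Pmel and Slc45a2 did not pass.

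Snai1, the zinc finger repressor that starts the transition, read 7.71, 7.36 and 7.90 in SKPs and 5.26, 5.61 and 5.18 in NSCPs. The groups were well apart, at a difference of -2.30 (SE 0.18, adjusted p = 1.34e-05), and NSCPs lay within background, so the 4.94-fold deficit rests on that level. SNAIL1 is known to bind E-boxes in its own promoter, so that sequence is shown beside the promoter of Zeb1. Among 8 factors with an entry in the RefSeq promoter table (build GRCr8), only these hold the E-box CAGGTG (searched on both strands, so also as CACCTG, and a case of the general E-box CANNTG) in the 250 bases before the table's start site. That motif occurs in 15.6% of 27457 promoters of the same length, and CANNTG in 65.2%. The windows are chr3:176667226-176667475 on the plus strand for Snai1, with the E-box 142 bases before the start site, and chr17:56810654-56810903 on the minus strand for Zeb1, with it 95 bases before. Capitals mark CAGGTG or CACCTG, and in Snai1 also the AP-2 motif described below for the TWIST and PRRX genes.
Snai1: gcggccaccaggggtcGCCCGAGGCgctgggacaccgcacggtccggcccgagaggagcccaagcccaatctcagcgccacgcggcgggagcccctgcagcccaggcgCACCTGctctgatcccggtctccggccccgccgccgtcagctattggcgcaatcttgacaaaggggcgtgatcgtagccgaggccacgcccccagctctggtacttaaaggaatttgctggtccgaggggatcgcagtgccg
Zeb1: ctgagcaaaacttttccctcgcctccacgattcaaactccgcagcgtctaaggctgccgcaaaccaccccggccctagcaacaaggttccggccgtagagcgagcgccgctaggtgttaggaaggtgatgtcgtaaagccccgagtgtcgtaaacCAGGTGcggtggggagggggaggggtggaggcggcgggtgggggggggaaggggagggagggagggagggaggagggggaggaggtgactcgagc
A match describes the letters only and was not tied to binding in these cells.

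Twist1, a bHLH gene of cranial crest and limb mesenchyme, was low in both cultures, at 5.95, 5.42 and 6.64 in SKPs and 4.44, 4.93 and 4.65 in NSCPs. The lowest SKP array lay 0.49 above the highest NSCP array, and the NSCP mean was within background. The difference was -1.33 (SE 0.28, adjusted p = 0.00518). Twist2 (also known as Dermo1), a bHLH gene of dermal and other mesenchyme, read 10.33, 10.12 and 10.17 in SKPs and 6.42, 6.93 and 6.62 in NSCPs. The difference of -3.55 (SE 0.15, adjusted p = 4.72e-07) is an 11.7-fold deficit, with NSCPs above background at 6.66 ± 0.26 (SD, n = 3).

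Zeb1, which encodes a zinc finger and homeodomain repressor of epithelial genes, was expressed in both cultures. It read 9.93, 10.45 and 10.26 in SKPs and 9.80, 9.03 and 9.55 in NSCPs, and the nearest arrays of the groups were 0.13 apart. The difference of -0.75 passed (SE 0.21, adjusted p = 0.0206, a 1.69-fold deficit in NSCPs). The call was lost without SKP replicate 2 (adjusted p = 0.0561), without SKP replicate 3 (0.0605), without NSCP replicate 2 (0.055) and with median centring (0.0659), and the adjusted p over all alternatives ran from 0.00334 to 0.0659. Its relative Zeb2, a regulator of Schwann cell differentiation, moved the other way, at 10.58 ± 0.24 in SKPs and 11.88 ± 0.26 in NSCPs (SD, n = 3 each; difference 1.30, adjusted p = 4.34e-04).

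The miR-200 family represses Zeb1 and Zeb2 in epithelial cells, and its genes were looked up after the values above were seen. The array holds probe sets for the genes Mir200a, Mir200b, Mir200c, Mir141 and Mir429, which do not tell the arms of a hairpin apart. All 5 lay within background in both cultures, with means from 3.03 in SKPs for Mir141 to 5.14 in NSCPs for Mir200a. The Mir200c difference of 0.41 passed within that range (adjusted p = 0.0284), and the other 4 did not. Of the family's mature 3' arms, only those of miR-141 and miR-200c were found in the RefSeq table (GRCr8), so the others are not shown. The seed, bases 2 to 8, is in capitals. The seeds of miR-141-3p (chr4:159209540-159209561, minus strand) and miR-200c-3p (chr4:159209969-159209989, minus strand) are not identical.
miR-141-3p: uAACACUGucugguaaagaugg
miR-200c-3p: uAAUACUGccggguaaugaug

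TWIST proteins act as dimers with the E proteins (Tcf3, Tcf4, Tcf12), and Id proteins take those partners away. Of 13 genes of this group 4 were higher and 2 lower in NSCPs, so 46.2% were called against 43.7% of all genes. The number called rose from 6 to 10 with median centring and to 11 with array weights. Id4 read 6.10, 5.56 and 6.03 in SKPs against 10.84, 11.02 and 11.10 in NSCPs, a 34.2-fold excess (difference 5.095, SE 0.17, adjusted p = 1.08e-07). Id3, Id1 and Id2 were higher by 2.95, 1.96 and 0.62, so all 4 Id genes were higher in NSCPs. Tcf4 was lower by a difference of -3.20, from 11.51 ± 0.04 to 8.31 ± 0.12 (SD, n = 3 each), while Tcf3 differed by -0.04 (adjusted p = 0.87). Tcf12 was lower by a difference of -0.49 (adjusted p = 0.0139), and with median centring it was -0.29 and did not pass (0.104).

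**Figure D3:**
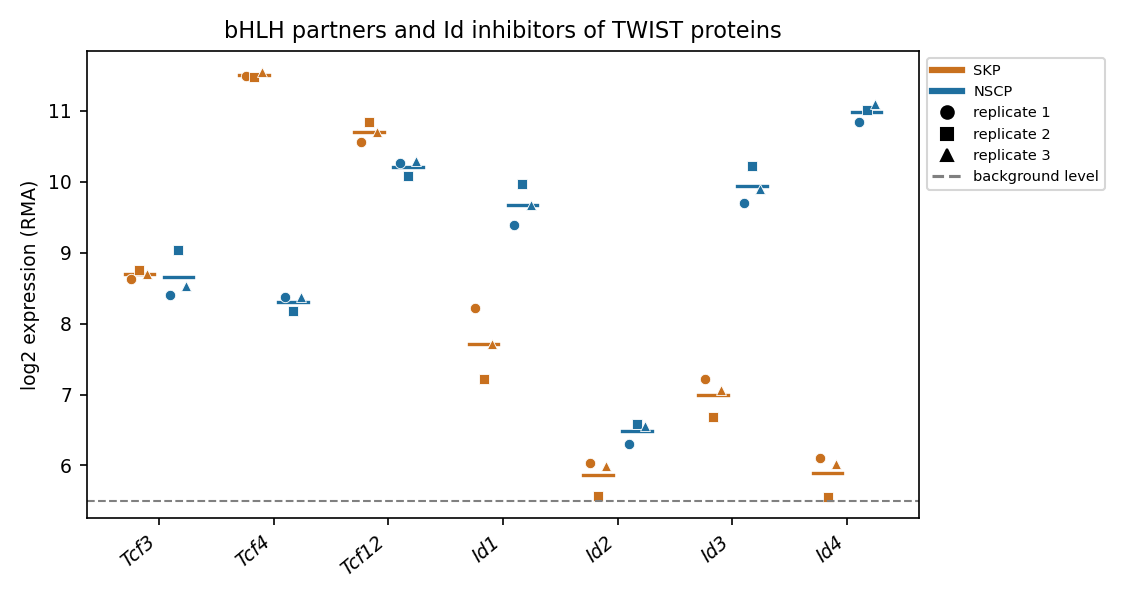
Log2 expression (y axis) of the E protein genes Tcf3, Tcf4 and Tcf12 and the inhibitor genes Id1 to Id4 on the 6 arrays, SKPs in orange, NSCPs in blue, bars for group means and the background level dashed. All 4 Id genes lie higher in NSCPs without overlap, and Tcf4 lies lower.

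The cofactors through which SNAIL and ZEB proteins repress were above background in 12 of 12 cases in both cultures. In NSCPs 3 were higher (25.0%) and 0 lower, against 25.2% and 18.6% of all genes. At an unadjusted limma p under 0.05, 1 was lower, the corepressor gene Ctbp2 (-0.32, adjusted p = 0.0541), which passed with a renewed quantile normalization (0.0343), over genes above background only (0.0346), with a trended prior (0.0415) and with array weights (0.0138). Ezh2, the Polycomb methyltransferase gene, was 4.20-fold higher, Hdac2 was higher by 0.66, and Prmt5 by 0.40 (adjusted p = 0.0359). The Prmt5 call was lost without SKP replicate 1 (0.118), SKP replicate 3 (0.116), NSCP replicate 1 (0.0571), NSCP replicate 2 (0.0784) or NSCP replicate 3 (0.0743), with a renewed quantile normalization (0.0928) and over all probe sets (0.0671). Other transition factors, 7 of them measured, had 2 higher (Zeb2, and Sox4 by 1.10) and 1 lower (Tcf4). The share called was 42.9%, against 43.7% of all genes.

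Prrx1, a homeobox gene of limb and dermal mesenchyme, had the largest difference of the 10. It read 11.69, 10.95 and 11.58 in SKPs and 4.19, 5.18 and 5.57 in NSCPs. The groups were separated by 5.37, the NSCP mean of 4.98 ± 0.71 (SD, n = 3) was within background, and the difference was -6.43 (SE 0.34, adjusted p = 1.5e-06). A difference of this size in either direction was found in 0.171% of genes. Prrx2, its relative in fetal dermis, read 7.47, 7.82 and 7.74 in SKPs and 6.62, 6.46 and 6.33 in NSCPs, without overlap and with both means above background. Its difference was -1.21 (SE 0.14, adjusted p = 1.68e-04), lower in NSCPs.

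The promoters of both TWIST and both PRRX genes are shown so that the sequences of the relatives can be compared. The AP-2 motif GCCNNNGGC, marked in capitals (the reverse strand reads the same), occurs in 3 of the 8 factor promoters (Snai1, Twist2 and Prrx2) and in 3582 of 27457 promoters (13.05%). Within the pairs, Twist2 has 3 matches and Prrx2 has 2, and no match lies in these windows of Twist1 and Prrx1. The Prrx1 window is 43.2% G and C, against 70.0% for Prrx2, 69.2% for Twist1, 67.2% for Twist2 and a median of 52.0% for all promoters. The windows are chr6:56402059-56402308 (plus strand) for Twist1, chr9:99821992-99822241 (plus strand) for Twist2, chr13:78204074-78204323 (minus strand) for Prrx1 and chr3:34530081-34530330 (plus strand) for Prrx2, all 250 bases of GRCr8. The start sites the table uses for Prrx1 and Zeb1 lie inside the span that RefSeq gives for these genes, so other start sites have other promoters.
Twist1: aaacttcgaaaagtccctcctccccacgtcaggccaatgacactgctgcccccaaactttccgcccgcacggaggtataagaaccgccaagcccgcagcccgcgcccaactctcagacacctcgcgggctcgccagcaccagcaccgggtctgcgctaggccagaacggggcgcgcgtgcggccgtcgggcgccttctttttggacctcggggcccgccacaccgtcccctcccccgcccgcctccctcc
Twist2: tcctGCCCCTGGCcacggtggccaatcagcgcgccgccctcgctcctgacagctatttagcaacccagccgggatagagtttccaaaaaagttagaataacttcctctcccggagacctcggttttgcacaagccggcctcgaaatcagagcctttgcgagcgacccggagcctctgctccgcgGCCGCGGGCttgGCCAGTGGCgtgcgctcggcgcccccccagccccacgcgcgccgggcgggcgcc
Prrx1: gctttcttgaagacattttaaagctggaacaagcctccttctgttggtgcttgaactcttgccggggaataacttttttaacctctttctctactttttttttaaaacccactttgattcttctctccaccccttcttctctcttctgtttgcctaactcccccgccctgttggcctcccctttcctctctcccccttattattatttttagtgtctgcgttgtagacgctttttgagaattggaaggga
Prrx2: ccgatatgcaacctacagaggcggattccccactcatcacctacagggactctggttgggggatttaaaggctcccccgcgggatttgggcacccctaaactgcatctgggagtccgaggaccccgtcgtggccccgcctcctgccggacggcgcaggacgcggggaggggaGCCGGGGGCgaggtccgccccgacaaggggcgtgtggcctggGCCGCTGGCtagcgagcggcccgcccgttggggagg

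Relatives were set against each other by the change in their difference per array, which leaves the level of each probe set out. Between SKPs and NSCPs, Twist1 minus Twist2 changed by 2.22 on the log2 scale and Prrx1 minus Prrx2 by -5.22. Twist1 (4.67) and Prrx1 (4.98) were within background in NSCPs, so the array can hide part of their fall. Twist1 began at 6.005 in SKPs, near the background level of 5.50, and could not have shown a fall as large as that of Twist2, so its smaller change is not read as a weaker one. Zeb1 minus Zeb2 changed by -2.06, with all 4 means above background. Tfap2a minus Tfap2b changed by -1.69, with Tfap2b within background in SKPs, and by -1.06 without SKP replicate 1 and -2.53 without SKP replicate 2. In a 2-sided exact permutation test over the 20 splits of the arrays the TWIST, PRRX and ZEB pairs reached p = 0.1, the smallest that 3 against 3 arrays allow, and Tfap2a with Tfap2b gave p = 0.2. Adjusted over the 4 pairs, p was 0.133, 0.133, 0.133 and 0.2, so none passed, in a design that cannot reach 0.05. Close relatives can share probe sequence, and cross-hybridization was not tested.

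**Figure D4:**
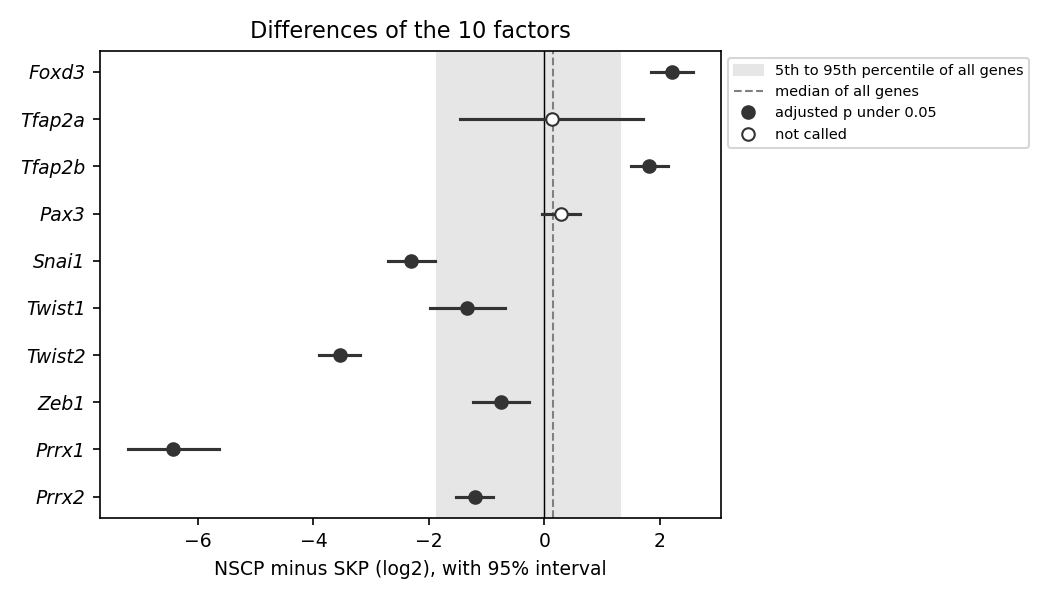
Difference of each factor, NSCPs minus SKPs (x axis, log2), with the 95% interval of the limma fit, filled points for adjusted p under 0.05 and open points for Tfap2a and Pax3, which did not pass. The grey band holds the 5th to 95th percentile of all genes (-1.85 to 1.31), and Prrx1, Twist2, Snai1, Foxd3 and Tfap2b lie outside it.

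Other mesenchymal and dermal transcription factors were lower in NSCPs in 16 of 25 cases and higher in 2, with a median difference of -1.05. Of all genes 18.6% were lower and 25.2% higher. The T-box gene Tbx15 (-6.11) and the early B-cell factor gene Ebf1 (-5.97), both within background in NSCPs, and the odd-skipped gene Osr1 (-5.94), at 12.16 ± 0.32 in SKPs and 6.22 ± 0.20 in NSCPs (SD, n = 3 each), were lower. Alx4 (-3.91) and Shox2 (-3.08, NSCPs within background), homeobox relatives of the PRRX genes, were lower as well. Alx1, another such relative, was called higher by 0.44 (adjusted p = 0.0438) with both means within background, and the call was lost without SKP replicate 1 (0.119), SKP replicate 2 (0.111), NSCP replicate 2 (0.114) or NSCP replicate 3 (0.107), with the replicate block (0.052), with a renewed quantile normalization (0.0628) and over all probe sets (0.0799). The other mesenchymal factor gene called higher was Dlx1, at 5.56 in SKPs and 7.64 in NSCPs (difference 2.08, adjusted p = 1.88e-06). No alternative lost the Dlx1 call, and its SKP mean lay just above background. Among 13 close family relatives of the 10 factors 4 were higher and 2 lower, so 46.2% were called against 43.7% of all genes. Foxd2 was higher by 0.57, with SKPs within background and a call lost without NSCP replicate 3 (adjusted p = 0.0557). Pax7 was higher by 0.49, a call lost without SKP replicate 1 (adjusted p = 0.124), SKP replicate 3 (0.0695), NSCP replicate 1 (0.0747) or NSCP replicate 2 (0.105), over all probe sets (0.0733), and with array weights (0.31, 0.0568).

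Structural genes that cells gain in the transition were lower in NSCPs in 12 of 19 cases and higher in 3, with a median difference of -0.95. Of all genes 18.6% were lower and 25.2% higher. Cdh11, a mesenchymal cadherin gene, was at 12.33 ± 0.08 in SKPs and within background in NSCPs (-6.95), and Thy1 (-5.51), the fibronectin gene Fn1 (-5.23), the collagen crosslinking gene Lox (-4.54) and the fibronectin receptor gene Itga5 (-3.17) were lower. Cdh2, the N-cadherin gene and the textbook gain of the transition, went the other way, at 8.41, 6.51 and 7.95 in SKPs and 9.99, 9.84 and 9.97 in NSCPs (2.31, adjusted p = 0.00195). Without SKP replicate 2 the Cdh2 difference was 1.75 (adjusted p = 6.66e-05). Cd44 (0.92, adjusted p = 0.00322) and S100a4 (0.85, adjusted p = 0.00689) were the other genes of this list higher in NSCPs. Vim, the vimentin gene, was near the top of the scale in both cultures (13.47 ± 0.04 and 13.64 ± 0.02, SD, n = 3 each) and did not pass (adjusted p = 0.244), though it did with median centring (0.37, adjusted p = 0.0189) and a trended prior (0.0414).

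Epithelial genes were within background in both cultures in 10 of 21 cases, with 6 higher and 3 lower in NSCPs. The share called was 42.9%, against 43.7% of all genes. Cldn1, a claudin gene, was the largest, at 10.81 ± 0.55 in SKPs and within background in NSCPs (-5.41), and Ocln (-1.48, NSCPs within background) and the polarity gene Patj (-1.13) were lower. Cdh1, the E-cadherin gene that SNAIL and ZEB proteins repress, read 7.10, 5.62 and 6.69 in SKPs and 7.24, 7.77 and 7.64 in NSCPs. It was higher in NSCPs by 1.08 (adjusted p = 0.0306), and by 0.66 without SKP replicate 2 (adjusted p = 0.0307), and the call was lost without NSCP replicate 2 (0.114) or NSCP replicate 3 (0.0822), and over all probe sets (0.0633). Epcam was within background on all arrays, at 3.04 to 4.37, though its difference of 0.81 passed (adjusted p = 0.00765). Cldn4, Cldn7, Grhl2 and Ovol2 were also called higher, with Cldn7 within background in both cultures and Grhl2 within it in SKPs. Cldn4 lay above background in both, at 5.53 in SKPs and 6.015 in NSCPs (0.48, adjusted p = 0.0114), and no alternative lost its call. Without SKP replicate 3 the calls of Cldn7 (adjusted p = 0.0579), Grhl2 (0.101) and Ovol2 (0.0705) were lost. Those of Grhl2 and Ovol2 were also lost without SKP replicate 1 or NSCP replicate 2, among other settings. Median centring raised the number of epithelial genes called from 9 to 17.

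Signals and receptors that induce the transition factors were lower in NSCPs in 12 of 16 cases and higher in 0. Of all genes 18.6% were lower and 25.2% higher. At an unadjusted limma p under 0.05, 2 were higher, Notch1 (0.38, adjusted p = 0.0558) and Wnt1 (0.35, adjusted p = 0.0854). Notch1 passed without NSCP replicate 3 (0.0412), over genes above background only (0.0389), with a trended prior (0.0385) and with median centring (0.00628). Wnt1 passed without SKP replicate 2 (0.018), with array weights (0.00699) and with median centring (0.0173). Wnt3a (0.25, adjusted p = 0.128) passed with median centring (0.016) and array weights (0.0208). Both Wnt1 (5.155) and Wnt3a (5.39) were within background in SKPs. In NSCPs they lay only just above it, at 5.51 and 5.65. The median difference was -1.69. Pdgfra (-6.88, NSCPs within background) and Wnt5a (-3.52) were lower, and so were Bmp7 (-2.58), Bmp4 (-2.46) and Bmp2 (-2.34), which induce Msx, Snai2 and AP-2 genes in the embryo. Bmp7 and Bmp4 were within background in NSCPs.

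**Figure D5:**
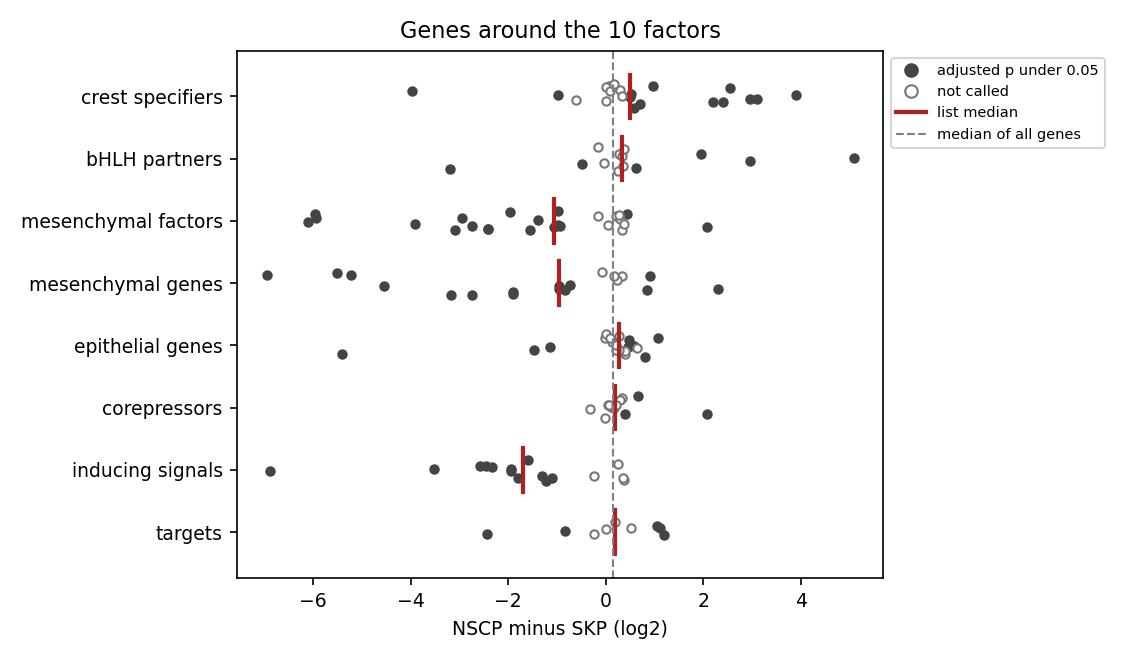
Difference of each gene, NSCPs minus SKPs (x axis, log2), in 8 of the lists around the factors (y axis), filled where the adjusted p was under 0.05, with the list median in red and the median of all genes (0.14) dashed. The medians of mesenchymal factors (-1.05), mesenchymal genes (-0.95) and inducing signals (-1.69) lie to the left, and that of crest specifiers (0.49) to the right.

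For each called factor with an absolute difference of at least 1, so not for Zeb1, the genes with the most similar profile were sought. The measure was the Euclidean distance between gene-centred log2 values over the 6 arrays, and genes with provisional symbols were left out. Nearest to Foxd3 were the replication helicase gene Mcm7 (distance 0.09), the tau gene Mapt (0.15) and the nestin gene Nes (0.19). Nearest to Twist2 were Wnt5a (0.26), Traf3ip2 (0.28) and Loxl4 (0.30), and nearest to Prrx1 were Edil3 (0.81), the leukocyte plastin gene Lcp1 (0.93) and Tbx15 (0.95). Snai1 was nearest to Prss35 (0.23), Dap (0.28) and Tspan9 (0.28), and Twist1 to Akr1c3 (0.22), Ecm1 (0.28) and Ntn4 (0.34). Tfap2b was nearest to Specc1 (0.13), Itprid2 (0.14) and Ndufa12 (0.17), and Prrx2 to Zfp300 (0.17), Dlgap4 (0.23) and Gmppa (0.24). All these profiles are led by the split between the groups, which the arrays share. By Pearson correlation in place of distance, Foxd3 and Twist1 kept 1 of their 3 genes and the other 5 factors kept 0.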

How the data were processed

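RNA of 3 SKP and 3 NSCP cultures was measured on 1 array each. The deposited values are log2 expression values that the authors made with the oligo package and RMA, per the submitters' processing notes, with no version or build given. RMA aligns the distributions of the arrays, so a shift of all genes would not be seen. Of 36685 probe sets, 18511 had 1 gene symbol, 575 several and 17599 none here. By Entrez ID 18394 were named through RefSeq (GRCr8) and 117 kept the table's symbol. For 291 genes with several probe sets the one with the highest mean was kept, leaving 18166 genes.

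The test was limma's (version 3.58.1, lmFit with eBayes, under R 4.3.3), 2-sided. The p-values of all 18166 genes were adjusted together by Benjamini-Hochberg. Beforehand the code of the fit was run on simulated independent normal values in which only a small share of genes was changed. As many more genes differed here, that run checks the code and not the calls of this comparison. Differences are NSCPs minus SKPs. The number of arrays limits the precision, and 63.8% to 65.8% of genes lay above background per array. No set test was run. Figures used matplotlib 3.10.9 under Python 3.11.15.

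The 10 factors and the gene lists were chosen with earlier results of these data known. Named genes are the 10 factors, the relatives, and per list up to 5 called genes with the largest difference (up to 3 with the highest mean where under 3 were called). The 3 nearest profiles of called factors with a difference of at least 1 are named too. Those called out for SKP replicate 2, Krt14, Tp63, the melanocyte genes, Sox8, Msx1, Alx1, Myod1, Vim, Ctbp2, Notch1, Wnt1, Wnt3a, Tcf3, Tcf12 and the miR-200 genes were added after their values were seen. So were Dlx1, Cldn4, Cldn7, Grhl2, Ovol2, Cd44, S100a4 and Cited4. Alternatives covered each array left out, the replicate block, renewed quantile normalization, median centring, genes above background only, array weights, the mean of a gene's probe sets, a prior that is trended and robust, and adjustment over all probe sets. Snai2 could not be set against Snai1, as it was not analysed here. Of 10 factors 8 matched the promoter table.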

Additional observations from a re-analysis of the deposited data

How the results depend on the processing

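Over all alternatives the calls of Foxd3, Tfap2b, Snai1, Twist1, Twist2, Prrx1 and Prrx2 kept their direction and stayed past the threshold. Leaving out 1 array each gave 7 to 8 called factors and 6341 to 7513 called genes. Zeb1 was lost without SKP replicate 2, SKP replicate 3 or NSCP replicate 2, and without SKP replicate 2 the count stayed at 8 because Tfap2a was called lower in its place. Tfap2a ran from -0.84 (without SKP replicate 2, reversed) to 0.81 (without SKP replicate 1) with 1 array left out, and reversed to -0.24 with array weights (adjusted p = 0.703). Pax3 passed with median centring, where Zeb1 did not. Median centring also moved the called bHLH partners from 6 to 10 (11 with array weights), the corepressors from 3 to 7, the epithelial genes from 9 to 17 and the AP-2 cofactors from 2 to 1, and leaving out an array gave 1 to 2 AP-2 cofactors. By its construction median centring adds 0.20 to every difference. The other causes were not tested. The replicate numbers do not pair the samples by the design. Deviations from the group means correlated at 0.04, 0.05 and 0.03 for the same numbers, and each SKP array correlated best with its own number, which is only a hint from the data. With the replicate number as a block 7681 genes and 8 factors were called. With background set by 227 receptor genes (5.32, a level added after seeing the data), the NSCP mean of Snai1 lay above background and no other factor's mean changed side. Signal near background limits Pax3, Tfap2b in SKPs, and Snai1, Twist1 and Prrx1 in NSCPs.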

Other observations

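The genes with an SKP range as wide as that of Tfap2a were named after their values were seen. SKP replicate 2 was the highest of the SKP arrays for Ly6al (10.60 against 2.56 and 2.83 in replicates 1 and 3), for the angiopoietin gene Angpt2 (9.42 against 5.67 and 8.12) and for Stra6, which encodes a retinol transporter (10.997 against 7.39 and 9.54). It was the lowest for the anion transporter gene Slc26a7 (4.82 against 9.27 and 8.34), the prostaglandin dehydrogenase gene Hpgd (4.52 against 8.21 and 7.24), Cd200r1l (2.39 against 5.96 and 4.76), Vgll2 (4.57 against 5.64 and 8.42) and the neuropeptide Y gene Npy (6.41 against 8.52 and 9.96).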
